A study of Mus musculus with 15 samples.

Results

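The genes described here are 31 genes of cholesterol synthesis and homeostasis in mouse liver, out of 54532 genes in the deposited expression table. They were taken by symbol from a list chosen with earlier results of these data known. Their shares set against all genes below therefore describe the list and do not test it. The list holds 18 enzymes of the mevalonate and sterol pathway and 4 genes of SREBP2 control. It also holds 4 genes of sterol uptake and movement, and 5 genes of sterol export and its nuclear receptor. Of the 31 genes, 30 passed the filter on low values and were tested, and the remaining one was Fdps. The libraries come from 12-day-old mice of a model of oxygen-induced retinopathy (OIR), in which the retina of pups loses small vessels during exposure to high oxygen. The study compared livers of a strain it calls resistant to OIR, BALBc, with livers of one it calls susceptible, C57, to look for metabolic changes tied to protection. BALBc hyperoxia (4 libraries) and C57 hyperoxia (4 libraries) came from pups kept in 75% oxygen from day 7 to day 12. BALBc normoxia (3 libraries) and C57 normoxia (4 libraries) came from pups of the same age in room air. No group carries an engineered allele or a drug. The labels do not say that the libraries of a group came from separate animals, so p-values measure the spread between these libraries, which may be technical.

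Liver makes cholesterol from acetyl-CoA through the mevalonate pathway, which ends at farnesyl diphosphate, and through the sterol pathway, which runs from squalene to cholesterol. The transcription factor SREBP2 switches on nearly all of these enzymes when the membranes of the endoplasmic reticulum hold little cholesterol. Scap then carries SREBP2 to the Golgi, where it is cut and released, whereas INSIG proteins hold Scap back when sterols are plentiful. Surplus sterol is sensed by the liver X receptors (LXR), which raise the exporters Abca1, Abcg5 and Abcg8 and the E3 ligase Mylip.

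Levels are FPKM, the number of sequenced fragments scaled to transcript length and library depth. The steps between low values gave 1.49e+07 to 1.91e+07 fragments per library. Apart from Fdps, the least covered member had 40 fragments in its lowest library, and that member was Sqle. Changes are differences of log2(FPKM + 1) with their standard errors (SE) from limma, a linear model fitted to 13026 genes over all 15 libraries, and this scale understates the change of weakly expressed genes. A gene was called at a Benjamini-Hochberg adjusted p under 0.05 over all genes tested. Libraries fell into 2 kinds that the labels do not explain. In 7 libraries, 28.9% to 32.4% of the genes with 1 to 10 fragments had exactly 1, against 10% to 17.6% in the other 8. The 7 were all 4 C57 hyperoxia libraries and 1 library of each other group, so in C57 this property nearly coincides with hyperoxia. Within hyperoxia it also nearly coincides with strain, since 3 of the 4 BALBc hyperoxia libraries are of the other kind. Summed hepatocyte markers overlapped between oxygen groups in C57, at 77180 to 79921 FPKM in C57 hyperoxia and 68035 to 88559 FPKM in C57 normoxia. In BALBc they did not overlap, at 69702 to 71685 FPKM in BALBc hyperoxia and 74949 to 80873 FPKM in BALBc normoxia. None of the 7 hepatocyte markers was called for oxygen in either strain, and their part in the results below was not tested. In bulk liver, fewer cells of a type and less RNA per cell cannot be told apart.

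In BALBc livers, hyperoxia went with higher RNA of cholesterol synthesis enzymes. Nsdhl, Idi1, Sqle and Hmgcs1 rose, with means 1.6 to 2.98 times those of BALBc normoxia, and Insig2 fell. These 5 genes are 16.7% of the 30 members tested, where 0.944% of all genes were called in either direction, 0.407% as higher and 0.537% as lower. Of the 30 members, 17 had all 4 BALBc hyperoxia libraries above all 3 BALBc normoxia libraries, where 6.43% of all genes did, and 3 had all of them below, where 7.15% of all genes did. The median change of the members was 0.30, against 0.001 over all genes. Unadjusted p was under 0.05 for 17 members higher and 3 lower in BALBc hyperoxia, 20 in all, and for 12.4% of all genes. The count of called members was 0 without BALBc hyperoxia 3, BALBc normoxia 2 or BALBc normoxia 3. It was 1 without BALBc hyperoxia 1 or BALBc hyperoxia 4, and 3 without BALBc hyperoxia 2, BALBc normoxia 1, C57 hyperoxia 1 or C57 hyperoxia 4, the last 2 of which enter only through the shared spread.

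In C57 livers, limma called 0 of the 30 members for hyperoxia against normoxia, where 0.937% of all genes were called, 0.223% as higher and 0.714% as lower. Unadjusted p was under 0.05 for 6 members, of which 4 were higher and 2 lower in C57 hyperoxia, against 14.2% of all genes. The smallest adjusted p was 0.165, for Hmgcs1. One member, again Hmgcs1, had all 4 C57 hyperoxia libraries above all 4 C57 normoxia libraries, where 3.51% of all genes did. None lay entirely below, where 4.38% of all genes did. The median change was 0.14, against 0.002 over all genes.

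The difference between the responses of the strains was tested as an interaction, the BALBc change minus the C57 change. It was called for Insig2 alone among the members, 3.33% of those tested, where 0.821% of all genes were called (0.376% higher, 0.445% lower). Unadjusted p was under 0.05 for 11 members, 9 with a more positive and 2 with a more negative change in BALBc, against 12.7% of all genes. So for the enzymes called in BALBc and not in C57, a difference between the strains did not pass the test.

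**Figure D1:**
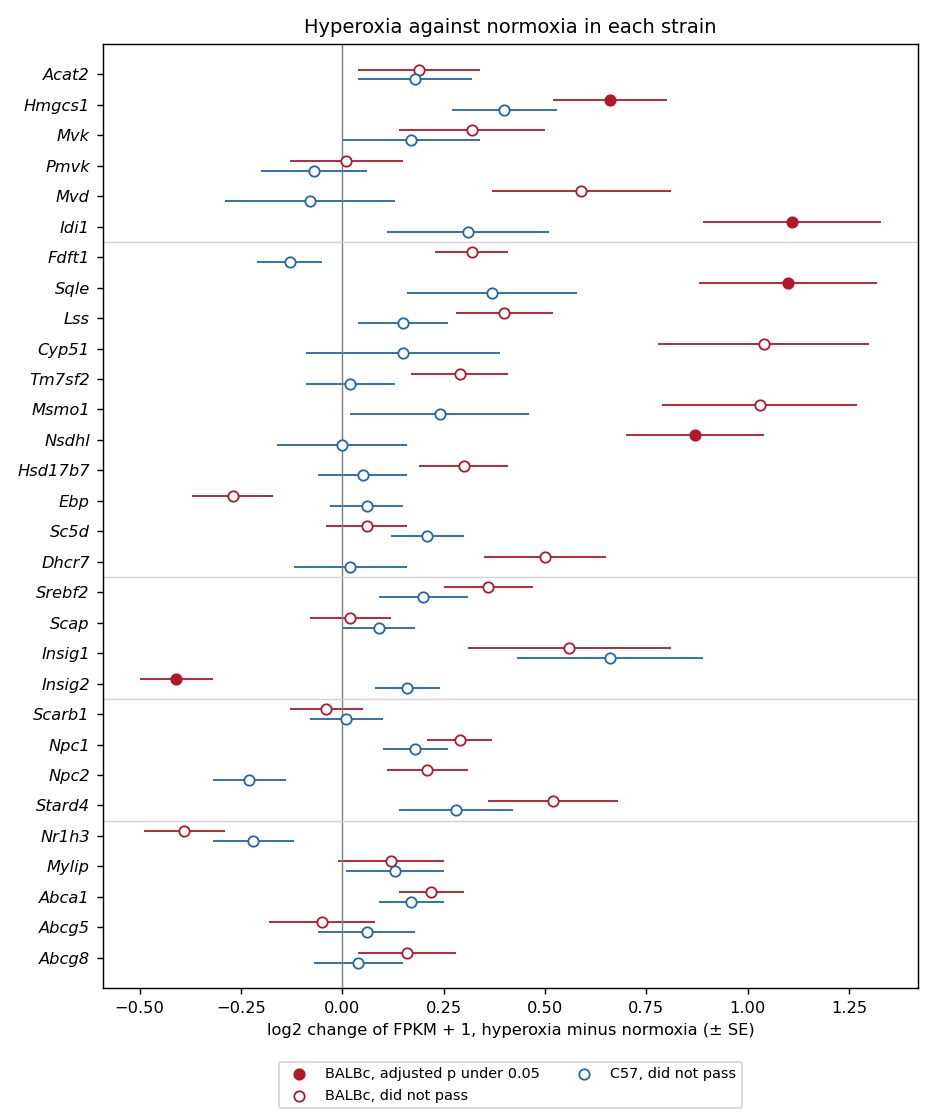
Change of log2(FPKM + 1) for hyperoxia minus normoxia, with its SE, for the 30 tested members grouped by role from the mevalonate arm at the top to export and LXR at the bottom. BALBc points (red) are filled where the adjusted p was under 0.05, which holds for Hmgcs1, Idi1, Sqle, Nsdhl and Insig2. No C57 point (blue) is filled.

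Between strains, 9 members were called in normoxia, 5 higher and 4 lower in BALBc. That is 30.0% of the members, and 30% of all genes were called (15.4% higher, 14.6% lower), so the members did not stand out from the background. In hyperoxia 20 members were called, 17 higher and 3 lower in BALBc, or 66.7% of the members, where 23.2% of all genes were called (11.9% higher, 11.3% lower). The median strain difference of the members was 0.42 in hyperoxia and 0.21 in normoxia, against -0.002 and 0.011 over all genes. The strain comparison in hyperoxia uses the same BALBc hyperoxia libraries as the oxygen comparison in BALBc, so these are not separate lines of evidence. Some markers of other cell types differed with strain. Their counts stand against 23.2% of all genes called in hyperoxia and 30% in normoxia. The summed level of 8 macrophage markers was 137 to 182 FPKM in BALBc hyperoxia, 148 to 161 in BALBc normoxia, 287 to 372 in C57 hyperoxia and 444 to 721 in C57 normoxia. Of the 8 macrophage markers, 7 were called lower in BALBc in each oxygen condition. Summed cholangiocyte markers were 36.4 to 42 FPKM in BALBc hyperoxia, 36.5 to 42.2 in BALBc normoxia, 48.0 to 68.4 in C57 hyperoxia and 51.5 to 66.2 in C57 normoxia, and of the 4 tested 2 were called lower in BALBc in hyperoxia and 1 in normoxia. The 4 adrenal markers summed to 10.4 to 15.2 FPKM in BALBc hyperoxia, 5.5 to 11.7 in BALBc normoxia, 26.9 to 47.7 in C57 hyperoxia and 36.0 to 39.0 in C57 normoxia. The 1 adrenal marker that could be tested was lower in BALBc by -1.44 in hyperoxia and -2.22 in normoxia, both called. The defining adrenal enzymes Cyp11a1 and Cyp11b1 each averaged under 0.1 FPKM over all 15 libraries. Of 8 erythroid markers, 3 were called higher in BALBc in hyperoxia and 1 in normoxia. Their sums overlapped between strains, at 1436 to 1938 FPKM in BALBc hyperoxia and 1233 to 2903 FPKM in C57 hyperoxia. In normoxia they were 1537 to 1838 FPKM in BALBc and 1554 to 3330 FPKM in C57. Of 7 hepatocyte markers, 1 was called higher and 2 lower in BALBc in hyperoxia, with 2 and 2 in normoxia. Of 6 stellate markers, 1 was higher and 1 lower in hyperoxia, with 2 and 1 in normoxia. The part of these markers in the strain differences of the sterol genes was not tested.

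**Figure D2:**
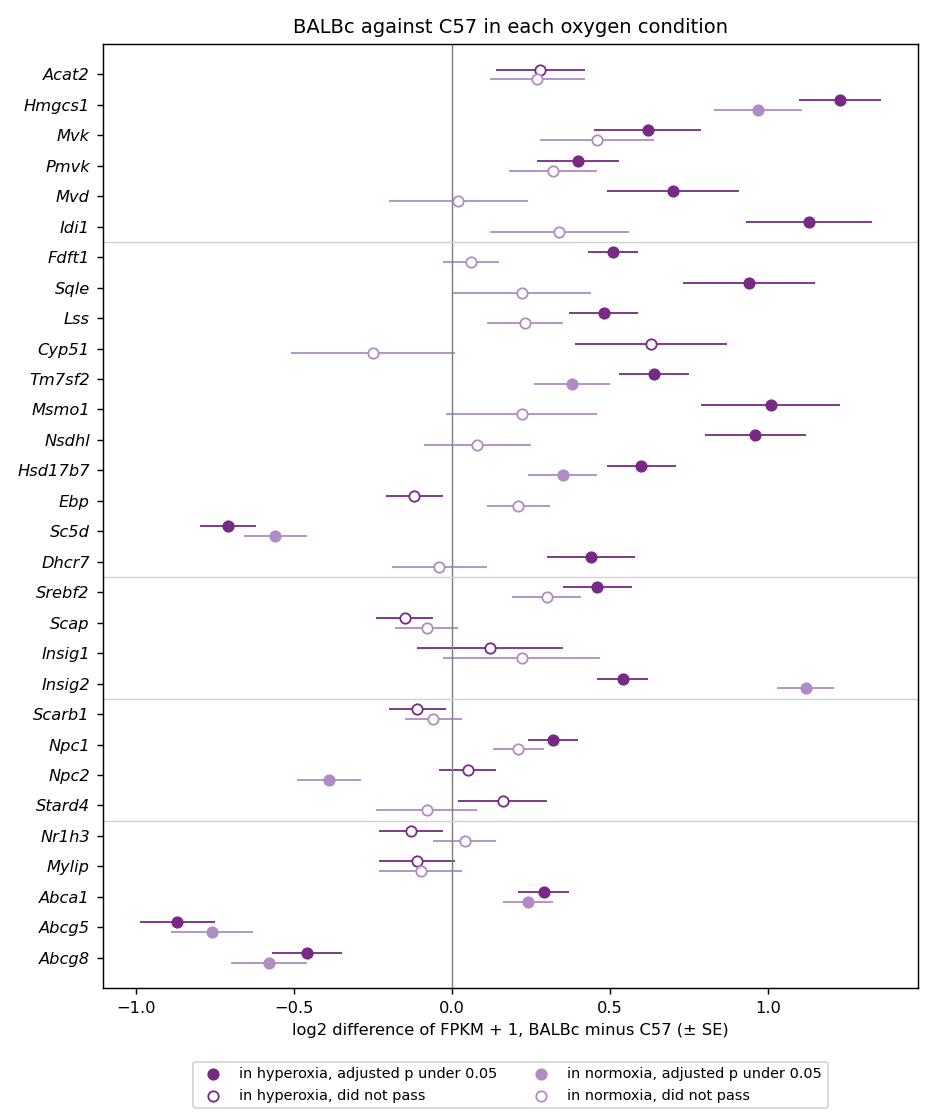
Difference of log2(FPKM + 1), BALBc minus C57, with its SE, for the same 30 members in hyperoxia (dark) and in normoxia (light). Filled points had an adjusted p under 0.05, which holds for 20 members in hyperoxia and 9 in normoxia. Sc5d, Abcg5 and Abcg8 lie left of 0 in both.

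The mevalonate arm begins with Acat2, which joins acetyl-CoA units, and Hmgcs1, the cytosolic HMG-CoA synthase. Hmgcs1 (ENSMUSG00000093930) lies on the plus strand of chromosome 13 at 119690379 to 119708260 in GRCm38. It had 82.9, 56.0, 59.4 and 59.7 FPKM in BALBc hyperoxia, against 47.1, 39.5 and 34.5 FPKM in BALBc normoxia. The C57 hyperoxia libraries had 27.1, 30.4, 24.1 and 25.2 FPKM, against 17.9, 18.7, 22.2 and 21.4 FPKM in C57 normoxia. In each strain every hyperoxia library lay above every normoxia library, and every BALBc library lay above every C57 library. The change with hyperoxia was 0.66 ± 0.14 in BALBc (SE, adjusted p = 0.039, limma) and 0.40 ± 0.13 in C57 (adjusted p = 0.165, limma). The difference of these was 0.26 ± 0.19 (adjusted p = 0.618, limma). BALBc exceeded C57 by 1.23 ± 0.13 in hyperoxia (adjusted p = 6.14e-06, limma), the most positive difference among the members, and by 0.97 ± 0.14 in normoxia (adjusted p = 9.83e-05, limma). An antisense gene, Gm48342, overlaps 557 bases of Hmgcs1 exons (12.1%), and without stated strand counting their fragments cannot be told apart.

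Idi1 isomerises isopentenyl diphosphate, the building block of all isoprenoids. Idi1 (ENSMUSG00000058258, chromosome 13, 8885501 to 8892451, plus strand) had 10.3, 5.26, 7.6 and 5.54 FPKM in BALBc hyperoxia, against 2.21, 2.83 and 3.06 FPKM in BALBc normoxia. The C57 hyperoxia libraries had 2.54, 3.57, 2.01 and 2.53 FPKM, against 2.54, 1.06, 2.37 and 1.96 FPKM in C57 normoxia. The lowest BALBc hyperoxia library lay above all 11 libraries of the other groups, whose levels overlapped. The mean in BALBc hyperoxia was 2.66 times that in BALBc normoxia, a change of 1.11 ± 0.22 (adjusted p = 0.0262, limma). The C57 change was 0.31 ± 0.20 (adjusted p = 0.514, limma), and the difference between strains in response was 0.80 ± 0.30 (adjusted p = 0.258, limma). BALBc exceeded C57 by 1.13 ± 0.20 in hyperoxia (adjusted p = 0.000892, limma), and by 0.34 ± 0.22 in normoxia, which did not pass (adjusted p = 0.273, limma).

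Mvk, mevalonate kinase, had 6.92, 7.18, 8.44 and 7.99 FPKM in BALBc hyperoxia, against 5.25, 6.11 and 6.31 FPKM in BALBc normoxia. In C57 hyperoxia it had 3.97, 4.87, 4.11 and 5.68 FPKM, against 4.3, 2.38, 6.07 and 3.87 FPKM in C57 normoxia. It was called only between strains in hyperoxia, at 0.62 ± 0.17 (adjusted p = 0.0165, limma). The Mvk call was lost without the library C57 hyperoxia 1 and with library kind as a term. Pmvk, the kinase of the next step, had 12.6, 11.9, 11 and 10.7 FPKM in BALBc hyperoxia, against 7.3, 10.1, 7.24 and 9.81 FPKM in C57 hyperoxia, a difference of 0.40 ± 0.13 (adjusted p = 0.042, limma). Its normoxia libraries had 10.1, 10.7 and 13.9 FPKM in BALBc and 7.07, 9.35, 10.4 and 9.44 FPKM in C57, and its oxygen changes were 0.01 ± 0.14 in BALBc and -0.07 ± 0.13 in C57. The Pmvk call between strains was lost in 6 of the 15 omissions of a library, without a filter and with library kind as a term. Mvd, which decarboxylates mevalonate diphosphate, had 6.18, 3.22, 5.52 and 5.63 FPKM in BALBc hyperoxia, against 2.7, 3.46 and 2.85 FPKM in BALBc normoxia. Its 4 C57 hyperoxia libraries had 3.11, 3.24, 2.6 and 2.03 FPKM, against 3.21, 4.89, 1.83 and 2.39 FPKM in C57 normoxia. The library BALBc hyperoxia 2 lay inside the BALBc normoxia range, and the BALBc change of 0.59 ± 0.22 did not pass (adjusted p = 0.27, limma). Mvd differed between strains in hyperoxia by 0.70 ± 0.21 (adjusted p = 0.0248, limma) although that library overlapped C57 hyperoxia. This strain call was lost in 5 of the 15 omissions of a library, without a filter and with library kind as a term. Acat2 ranged over 16.8 to 19.2 FPKM in BALBc hyperoxia, 12.4 to 18.2 in BALBc normoxia, 13.7 to 15.2 in C57 hyperoxia and 8.77 to 14.7 in C57 normoxia and was called in no comparison.

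Fdps, which makes farnesyl diphosphate, was near the limit of detection. It had 0.808, 0.326, 0.755 and 0.212 FPKM in BALBc hyperoxia, against 0.224, 0.0617 and 0.0307 FPKM in BALBc normoxia. In C57 hyperoxia it had 0.239, 0.22, 0.0637 and 0.147 FPKM, against 0.384, 0, 0.103 and 0.0622 FPKM in C57 normoxia. No library reached the filter of 1 FPKM, the counts behind these values were 0 to 63 fragments, and no fold or test is given. The gene shares 26.7% of its exon length with the annotated gene Gm43738 on the same strand, so its level is uncertain.

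**Figure D3:**
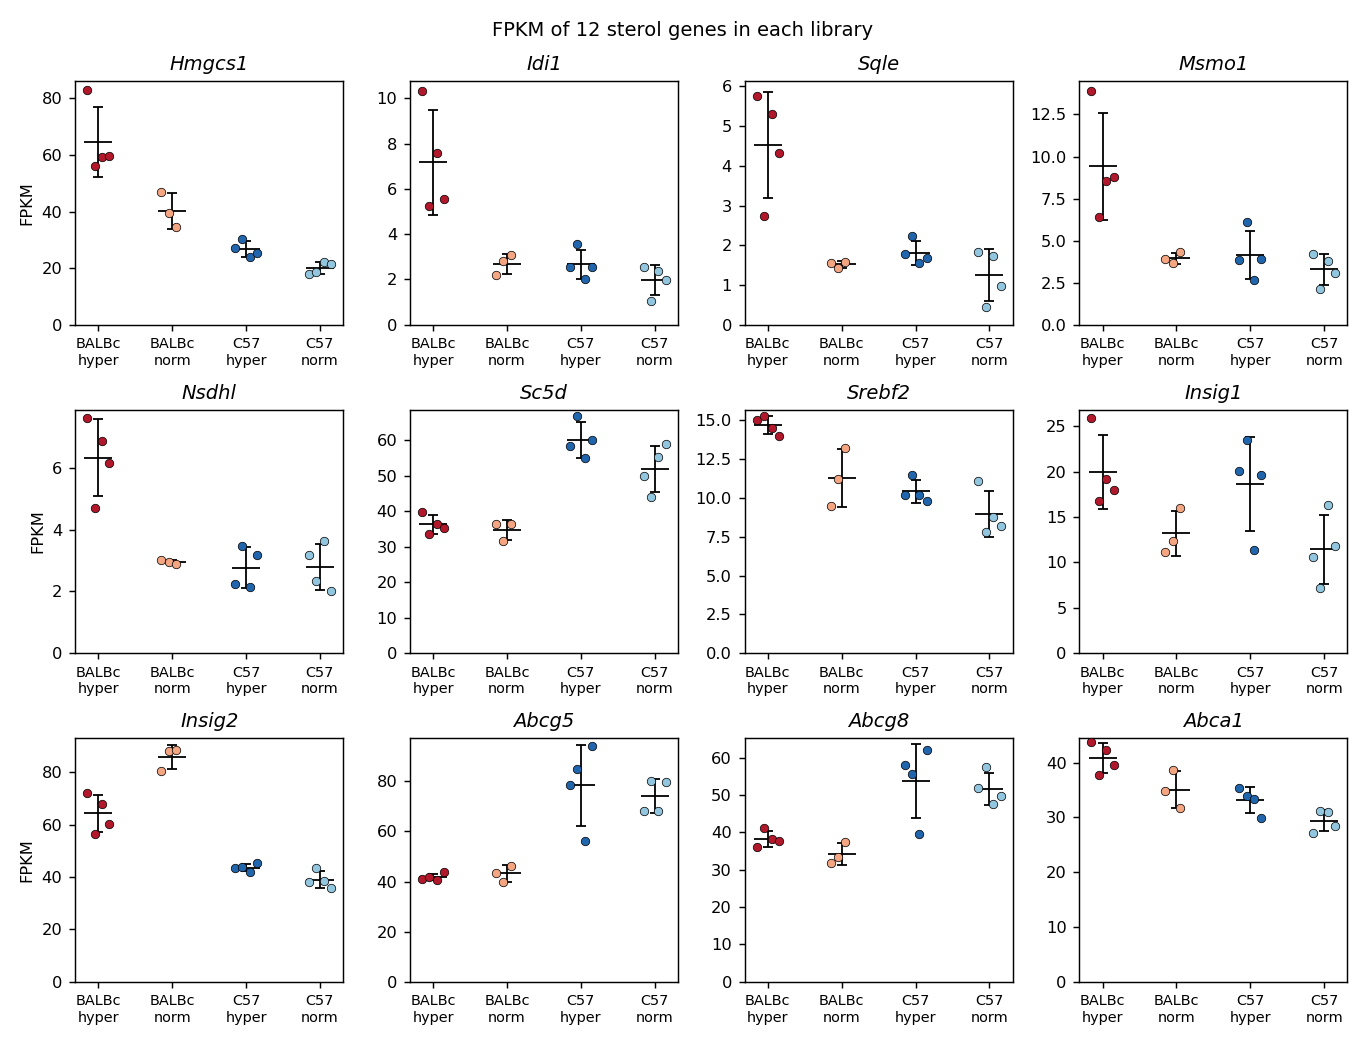
FPKM of 12 members in each library, on axes that start at 0, with the mean (long bar) and SD (error bar) of each group. The BALBc hyperoxia libraries of Idi1, Sqle, Msmo1 and Nsdhl stand above the other 3 groups, Sc5d and Abcg5 separate the strains with BALBc lower, Abcg8 does so but for 1 C57 hyperoxia library at 39.6 FPKM, and Insig2 is highest in BALBc normoxia.

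In the sterol pathway, the committed step is taken by Fdft1, squalene synthase, and the next, a rate-limiting oxidation, by Sqle, squalene epoxidase. Fdft1 had 28.8, 26.1, 31.3 and 28.2 FPKM in BALBc hyperoxia, against 23.6, 24.2 and 20.1 FPKM in BALBc normoxia. It had 20.0, 20.5, 18.5 and 20.0 FPKM in C57 hyperoxia, against 21.4, 20.8, 20.4 and 24.3 FPKM in C57 normoxia. The sign of the change differed between strains, at 0.32 ± 0.09 in BALBc (adjusted p = 0.0965, limma) and -0.13 ± 0.08 in C57 (adjusted p = 0.499, limma), and their difference of 0.45 ± 0.12 did not pass (adjusted p = 0.0927, limma). Between strains Fdft1 was higher in BALBc hyperoxia than in C57 hyperoxia by 0.51 ± 0.08 (adjusted p = 0.000292, limma). Ctsb, on the opposite strand, overlaps 774 bases of its exons (18.3%), and their fragments may be mixed. Sqle (ENSMUSG00000022351, chromosome 15, 59315077 to 59331192, plus strand) had 5.75, 2.73, 5.3 and 4.32 FPKM in BALBc hyperoxia, against 1.55, 1.43 and 1.59 FPKM in BALBc normoxia. It had 1.77, 2.24, 1.56 and 1.68 FPKM in C57 hyperoxia, against 1.83, 0.446, 1.73 and 0.98 FPKM in C57 normoxia. As for Idi1, every BALBc hyperoxia library lay above every other library. The mean in BALBc hyperoxia was 2.98 times that in BALBc normoxia, the greatest ratio among the tested members, with a change of 1.10 ± 0.22 (adjusted p = 0.0328, limma). The change in C57 was 0.37 ± 0.21 (adjusted p = 0.446, limma), and BALBc exceeded C57 by 0.94 ± 0.21 in hyperoxia (adjusted p = 0.00396, limma).

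Lss closes the ring of lanosterol, and Cyp51, Tm7sf2, Msmo1, Nsdhl and Hsd17b7 then remove its extra methyl groups and reduce it. Nsdhl (ENSMUSG00000031349, chromosome X, 72918557 to 72958514, plus strand) had 7.6, 4.7, 6.85 and 6.15 FPKM in BALBc hyperoxia, against 3.02, 2.96 and 2.88 FPKM in BALBc normoxia. Its levels were 2.25, 3.48, 2.14 and 3.17 FPKM in C57 hyperoxia, against 3.16, 2.32, 3.63 and 2.02 FPKM in C57 normoxia. The C57 groups overlapped throughout, whereas BALBc hyperoxia lay above all other libraries. The change was 0.87 ± 0.17 in BALBc (adjusted p = 0.0252, limma, the smallest of any member in that comparison) and -0.0 ± 0.16 in C57 (adjusted p = 0.995, limma). The interaction of 0.88 ± 0.23 had an adjusted p of 0.101 (limma). Nsdhl is X-linked, and Xist exceeded 1 FPKM in 2 of 4 BALBc hyperoxia, 2 of 3 BALBc normoxia, 1 of 4 C57 hyperoxia and 2 of 4 C57 normoxia libraries. Adding this as a term kept the Nsdhl call in BALBc, and the same term lost the Hmgcs1 call there. The Nsdhl call was lost in 6 of the 15 omissions of a library, with changes of 0.79 to 0.99. It was also lost without a filter, with replicate number as a block, and within libraries with few genes at 1 fragment.

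Msmo1, the sterol C4-methyl oxidase, had 13.9, 6.42, 8.57 and 8.79 FPKM in BALBc hyperoxia, against 3.9, 3.65 and 4.3 FPKM in BALBc normoxia. In C57 hyperoxia it had 3.83, 6.12, 2.68 and 3.94 FPKM, against 4.2, 2.12, 3.82 and 3.09 FPKM in C57 normoxia. The BALBc groups were apart, but the change of 1.03 ± 0.24 missed the threshold (adjusted p = 0.0568, limma), while the strain difference in hyperoxia of 1.01 ± 0.22 passed (adjusted p = 0.00364, limma). Cyp51, the lanosterol demethylase, was like it in BALBc, at 7.79 to 15.3 FPKM in hyperoxia and 5.01 to 5.33 FPKM in normoxia, a change of 1.04 ± 0.26 (adjusted p = 0.0769, limma). In C57 it ranged over 6.23 to 9.81 FPKM in hyperoxia and 4.09 to 10.7 FPKM in normoxia, and it was called in no comparison. Lss had 3.53, 2.31, 2.33 and 2.34 FPKM in BALBc hyperoxia, against 1.55, 1.83 and 1.82 FPKM in BALBc normoxia. Its C57 hyperoxia libraries had 1.47, 1.7, 1.4 and 1.77 FPKM, against 1.44, 1.28, 1.18 and 1.41 FPKM in C57 normoxia. Lss was called between strains in hyperoxia (0.48 ± 0.11, adjusted p = 0.00532, limma).

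Tm7sf2, a sterol reductase, had 14.2, 13.2, 13.4 and 14.9 FPKM in BALBc hyperoxia, against 9.56, 12.3 and 11.9 FPKM in BALBc normoxia. It had 8.28, 8.31, 7.98 and 9.65 FPKM in C57 hyperoxia, against 8.03, 7.29, 11.1 and 7.57 FPKM in C57 normoxia. It was higher in BALBc by 0.64 ± 0.11 in hyperoxia (adjusted p = 0.000854, limma) and by 0.38 ± 0.12 in normoxia (adjusted p = 0.0319, limma), and shares 12.1% of its exon length with Vps51 on the same strand. Hsd17b7, a ketosteroid reductase of the same pathway, had 7.97, 6.4, 6.99 and 7.33 FPKM in BALBc hyperoxia, against 5.12, 6.23 and 5.55 FPKM in BALBc normoxia. It had 3.88, 4.72, 4.61 and 4.42 FPKM in C57 hyperoxia, against 4.87, 4.99, 3.62 and 3.53 FPKM in C57 normoxia. Its strain differences were 0.60 ± 0.11 in hyperoxia (adjusted p = 0.00083, limma) and 0.35 ± 0.11 in normoxia (adjusted p = 0.0323, limma). The normoxia calls were lost in 5 of the 15 omissions of a library for Tm7sf2 and in 4 for Hsd17b7. Both were also lost without a filter and in a fit of the compared groups alone. Neither gene was called for oxygen in a strain.

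The last enzymes of the pathway did not share one pattern. Dhcr7, which reduces 7-dehydrocholesterol to cholesterol, had 7.55, 5.39, 7.26 and 5.78 FPKM in BALBc hyperoxia, against 3.78, 4.58 and 4.49 FPKM in BALBc normoxia. It had 3.63, 5.24, 3.96 and 5.28 FPKM in C57 hyperoxia, against 3.92, 4.18, 5.99 and 3.83 FPKM in C57 normoxia. It was called between strains in hyperoxia (0.44 ± 0.14, adjusted p = 0.035, limma). That call was lost in 4 of the 15 omissions of a library, without a filter and with library kind as a term. Sc5d, the desaturase that makes 7-dehydrocholesterol, went the other way between strains. It had 39.7, 33.6, 36.4 and 35.4 FPKM in BALBc hyperoxia, against 58.4, 66.9, 55.0 and 60.2 FPKM in C57 hyperoxia. In BALBc normoxia it had 36.4, 31.6 and 36.5 FPKM, against 49.8, 43.9, 55.2 and 58.9 FPKM in C57 normoxia. All 7 BALBc libraries lay below all 8 C57 libraries. The strain difference was -0.71 ± 0.09 in hyperoxia (adjusted p = 6.29e-05, limma) and -0.56 ± 0.10 in normoxia (adjusted p = 0.000743, limma), and its oxygen changes were 0.06 ± 0.10 in BALBc and 0.21 ± 0.09 in C57, neither called. Ebp, the X-linked sterol isomerase, had 36.7 to 40.1 FPKM in BALBc hyperoxia and 45.7 to 46.3 FPKM in BALBc normoxia, the only synthesis enzyme whose BALBc hyperoxia libraries all lay below BALBc normoxia. That change of -0.27 ± 0.10 did not pass (adjusted p = 0.244, limma). Ebp ranged over 37.2 to 47.1 FPKM in C57 hyperoxia and 32.8 to 44.5 FPKM in C57 normoxia.

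Over the 17 tested enzymes, 4 were called higher and 0 lower with hyperoxia in BALBc (0.407% and 0.537% of all genes), and 0 in C57. In BALBc hyperoxia 12 of the 17 lay entirely above BALBc normoxia (6.43% of all genes) and 1, Ebp, entirely below (7.15% of all genes). The median change of the enzymes was 0.40 in BALBc and 0.15 in C57. Between strains, 13 enzymes were called higher and 1 lower in BALBc in hyperoxia, with 3 higher and 1 lower in normoxia. These are 82.4% of the 17 enzymes in hyperoxia and 23.5% in normoxia, where 23.2% and 30% of all genes were called, so the normoxia share is below the background. The mean log2(FPKM + 1) of the 17 enzymes was 3.85, 3.42, 3.68 and 3.62 in the BALBc hyperoxia libraries and 3.11, 3.15 and 3.17 in the BALBc normoxia libraries. It was 3.0, 3.24, 2.92 and 3.11 in the C57 hyperoxia libraries and 3.05, 2.75, 3.09 and 2.9 in the C57 normoxia libraries. The 4 BALBc hyperoxia libraries had the highest means of the 15, and the C57 hyperoxia range overlapped both normoxia groups. Within BALBc hyperoxia the libraries were ordered alike across enzymes, since BALBc hyperoxia 1 was the highest for 13 of the 17 and BALBc hyperoxia 2 the lowest for 14.

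Both kinds of library, with few and with many genes at 1 fragment, occur in both BALBc groups. Among libraries with few genes at 1 fragment (3 BALBc hyperoxia, 2 BALBc normoxia), the median enzyme change was 0.35 and 15 of 17 enzymes were positive. Among those with many (1 of each), it was 0.80 with 16 of 17 positive. For C57 only libraries with many such genes allow a value (4 C57 hyperoxia, 1 C57 normoxia), and the median was 0.18 with 14 of 17 positive. The strain difference in hyperoxia, again only among libraries with many (1 BALBc, 4 C57), had a median of 0.73 with 15 of 17 positive. In normoxia the median strain difference was 0.22 among libraries with few and 0.18 among libraries with many.

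**Figure D4:**
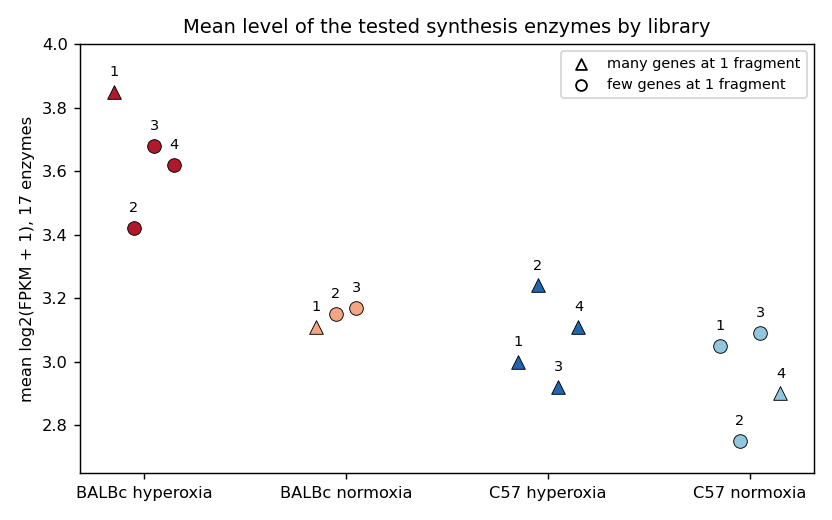
Mean log2(FPKM + 1) of the 17 tested synthesis enzymes in each library, numbered by replicate, with triangles for libraries with many genes at 1 fragment and circles for those with few. BALBc hyperoxia libraries sit at 3.42 to 3.85, above BALBc normoxia (3.11 to 3.17), C57 hyperoxia (2.92 to 3.24) and C57 normoxia (2.75 to 3.09). The vertical axis does not start at 0.

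Among the control genes, Insig2 was the one called for a difference between strains in its oxygen response. Insig2 is an endoplasmic reticulum protein that retains Scap, and in mouse liver it has a transcript of its own that insulin represses. Insig2 (ENSMUSG00000003721, chromosome 1, 121304353 to 121332589, minus strand) had 72.3, 56.6, 67.9 and 60.4 FPKM in BALBc hyperoxia, against 80.4, 88.3 and 88.6 FPKM in BALBc normoxia. It had 43.3, 43.8, 42.1 and 45.2 FPKM in C57 hyperoxia, against 38.1, 43.5, 38.6 and 35.9 FPKM in C57 normoxia. The BALBc groups were apart with hyperoxia lower, the C57 groups overlapped at the library C57 normoxia 2, and every BALBc library lay above every C57 library. Insig2 fell in BALBc by 0.41 on the log2 scale (SE 0.09, adjusted p = 0.039, limma), to 0.749 times the BALBc normoxia mean. Its C57 change was 0.16 ± 0.08 (adjusted p = 0.393, limma). The difference of the changes was -0.57 ± 0.12 (adjusted p = 0.0415, limma). That call was lost without BALBc hyperoxia 2, 3 or 4, BALBc normoxia 2 or 3, C57 hyperoxia 1, 2 or 4, or C57 normoxia 1 or 3, with differences of -0.63 to -0.52 over all 15 omissions. It was also lost with library kind as a term. Within libraries with few genes at 1 fragment the BALBc change was -0.52, and within those with many it was -0.15 in BALBc and 0.27 in C57. Insig2 was higher in BALBc by 1.12 ± 0.09 in normoxia (adjusted p = 2.67e-07, limma), the smallest adjusted p of any member in any comparison, and by 0.54 ± 0.08 in hyperoxia (adjusted p = 0.000185, limma).

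Insig1, which does the same work and is itself an SREBP target, had 25.9, 16.8, 19.2 and 18.0 FPKM in BALBc hyperoxia, against 11.2, 12.4 and 16 FPKM in BALBc normoxia. It had 20.1, 23.5, 11.4 and 19.6 FPKM in C57 hyperoxia, against 10.6, 7.14, 16.3 and 11.8 FPKM in C57 normoxia. The changes were close in size, 0.56 ± 0.25 in BALBc (adjusted p = 0.365, limma) and 0.66 ± 0.23 in C57 (adjusted p = 0.2, limma), and neither passed. The interaction was -0.10 ± 0.34, an error too wide to show that the strains responded alike. Srebf2, which encodes SREBP2, had 15, 15.3, 14.5 and 14.0 FPKM in BALBc hyperoxia, against 9.49, 11.2 and 13.2 FPKM in BALBc normoxia. It had 10.2, 11.5, 10.2 and 9.79 FPKM in C57 hyperoxia, against 11.1, 7.79, 8.8 and 8.19 FPKM in C57 normoxia. All 4 BALBc hyperoxia libraries lay above the other 11. The oxygen changes of 0.36 ± 0.11 in BALBc (adjusted p = 0.173, limma) and 0.20 ± 0.11 in C57 (adjusted p = 0.407, limma) did not pass, and the strain difference in hyperoxia of 0.46 ± 0.11 did (adjusted p = 0.00538, limma). That strain call of Srebf2 was lost with library kind as a term. Scap, the SREBP escort, had 21.1, 22.6, 22.4 and 17.8 FPKM in BALBc hyperoxia, against 18.0, 21.6 and 22.3 FPKM in BALBc normoxia. It had 23.6, 20.4, 24.9 and 24.2 FPKM in C57 hyperoxia, against 21.6, 23.0, 20.9 and 21.8 FPKM in C57 normoxia, and all its group ranges within a strain overlapped. Its changes were 0.02 ± 0.10 in BALBc and 0.09 ± 0.09 in C57.

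Of the genes that move sterol into and within cells, none was called for oxygen. Npc1, the lysosomal membrane protein that exports cholesterol, had 10.8, 10.4, 10.6 and 10.1 FPKM in BALBc hyperoxia, against 7.89, 9.56 and 7.85 FPKM in BALBc normoxia. It had 8.35, 8.02, 7.68 and 8.75 FPKM in C57 hyperoxia, against 7.91, 7.04, 6.34 and 7.28 FPKM in C57 normoxia. Npc1 was higher in BALBc hyperoxia than in C57 hyperoxia by 0.32 ± 0.08 (adjusted p = 0.00724, limma), while its BALBc oxygen change was 0.29 ± 0.08 (adjusted p = 0.13, limma). Npc2, the soluble lysosomal protein that hands cholesterol to Npc1, had 12.0, 14.0, 12.9 and 13.8 FPKM in BALBc hyperoxia, against 11.6, 11.2 and 10.9 FPKM in BALBc normoxia. It had 12.8, 13.1, 12.4 and 12.4 FPKM in C57 hyperoxia, against 17.2, 13.2, 12.9 and 17.5 FPKM in C57 normoxia. The C57 normoxia libraries 1 and 4 lay above all others. The changes were 0.21 ± 0.10 in BALBc and -0.23 ± 0.09 in C57, with a difference of 0.44 ± 0.14 that did not pass (adjusted p = 0.167, limma). Npc2 was lower in BALBc than in C57 in normoxia, by -0.39 ± 0.10 (adjusted p = 0.00852, limma), in the same direction as the macrophage markers. In hyperoxia 7 of the 8 macrophage markers were also called lower in BALBc, but Npc2 differed by 0.05 ± 0.09 (adjusted p = 0.766, limma). The part of these markers in the Npc2 levels was not tested. The sterol carrier Stard4 ranged over 10.4 to 16.9 FPKM in BALBc hyperoxia, 8.08 to 10.1 in BALBc normoxia, 10.4 to 15 in C57 hyperoxia and 7.81 to 11.6 in C57 normoxia. The HDL receptor Scarb1 ranged over 29.4 to 39.1 FPKM in BALBc hyperoxia, 32.6 to 38.5 in BALBc normoxia, 34.9 to 37.9 in C57 hyperoxia and 33.6 to 40.0 in C57 normoxia. Neither was called in any comparison.

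The 3 exporters were called between strains and none of them for oxygen. Abcg5 and Abcg8 are half-transporters that together pump sterols into bile, and they lie head to head on chromosome 17. Abcg5 (ENSMUSG00000040505, 84658234 to 84683011, minus strand) had 41.1, 41.7, 40.8 and 43.7 FPKM in BALBc hyperoxia, against 78.4, 85.0, 56.1 and 94.1 FPKM in C57 hyperoxia. In BALBc normoxia it had 43.5, 39.9 and 46.4 FPKM, against 68.2, 80.3, 68.3 and 79.6 FPKM in C57 normoxia. All BALBc libraries lay below all C57 libraries, by -0.87 ± 0.12 in hyperoxia (adjusted p = 0.000135, limma) and -0.76 ± 0.13 in normoxia (adjusted p = 0.000571, limma). Abcg8 (ENSMUSG00000024254, 84676302 to 84700333, plus strand) had 36.1, 41.1, 38.1 and 37.8 FPKM in BALBc hyperoxia, against 58.0, 55.6, 39.6 and 62.1 FPKM in C57 hyperoxia. In BALBc normoxia it had 31.8, 33.5 and 37.4 FPKM, against 51.8, 57.5, 47.5 and 49.8 FPKM in C57 normoxia. The library C57 hyperoxia 3 was the lowest of its group for both transporters, and for Abcg8 it fell within the BALBc hyperoxia range. The Abcg8 strain difference was -0.46 ± 0.11 in hyperoxia (adjusted p = 0.00869, limma) and -0.58 ± 0.12 in normoxia (adjusted p = 0.00264, limma). Exons of the 2 genes overlap by 82 bases on opposite strands. Oxygen changes of both lay between -0.05 and 0.16, and none was called.

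Abca1, which loads cholesterol onto apolipoprotein A-I, had 43.7, 37.8, 42.4 and 39.6 FPKM in BALBc hyperoxia, against 35.4, 34.0, 33.3 and 29.9 FPKM in C57 hyperoxia. In BALBc normoxia it had 34.8, 38.6 and 31.8 FPKM, against 27.2, 31.1, 31 and 28.4 FPKM in C57 normoxia. Unlike Abcg5 and Abcg8 it was higher in BALBc, by 0.29 ± 0.08 in hyperoxia (adjusted p = 0.0133, limma) and 0.24 ± 0.08 in normoxia (adjusted p = 0.0426, limma). The Abca1 call in normoxia was lost in 8 of the 15 omissions of a library, and with median scaling or quantile normalization. The calls of Abcg5 and Abcg8 were lost in 0 of the 15 omissions in either oxygen condition. Nr1h3, which encodes the receptor LXR alpha, had 26.2, 31.7, 30.6 and 31.2 FPKM in BALBc hyperoxia, against 33.5, 42.8 and 42.5 FPKM in BALBc normoxia. It had 30.0, 36.4, 32.9 and 31.9 FPKM in C57 hyperoxia, against 39.1, 35.0, 43.0 and 36.6 FPKM in C57 normoxia. The BALBc groups did not overlap and the C57 groups did. The changes of -0.39 ± 0.10 in BALBc (adjusted p = 0.0995, limma) and -0.22 ± 0.10 in C57 (adjusted p = 0.304, limma) did not pass. Mylip, an E3 ligase and LXR target, was called in no comparison and ranged over 5.86 to 8.05 FPKM in BALBc hyperoxia, 6.5 to 7.05 in BALBc normoxia, 6.5 to 9.38 in C57 hyperoxia and 6.23 to 8.84 in C57 normoxia.

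Promoter windows from RefSeq (GRCm38.p6, 250 bases before to 50 after each annotated start) were held for 25 of the 31 members. The windows below belong to the 2 mevalonate-arm enzymes and the X-linked sterol enzyme that rose in BALBc hyperoxia, to the control gene that fell, and to the exporter furthest below C57 in BALBc. Capitals mark CCAAT on either strand (read as CCAAT or ATTGG), the letters bound by NF-Y, a partner of SREBP, and in Hmgcs1 also an SREBP element searched as TCACNCCAC on both strands. No match of these motifs overlaps another in the windows shown.
Hmgcs1, chr13:119690101-119690400, plus strand: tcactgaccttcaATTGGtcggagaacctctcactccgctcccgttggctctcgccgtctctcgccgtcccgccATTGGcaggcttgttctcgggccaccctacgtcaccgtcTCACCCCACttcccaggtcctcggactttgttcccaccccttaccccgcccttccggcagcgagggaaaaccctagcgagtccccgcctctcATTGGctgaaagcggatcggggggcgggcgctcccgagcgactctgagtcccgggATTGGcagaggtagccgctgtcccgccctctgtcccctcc
Idi1, chr13:8885356-8885655, plus strand: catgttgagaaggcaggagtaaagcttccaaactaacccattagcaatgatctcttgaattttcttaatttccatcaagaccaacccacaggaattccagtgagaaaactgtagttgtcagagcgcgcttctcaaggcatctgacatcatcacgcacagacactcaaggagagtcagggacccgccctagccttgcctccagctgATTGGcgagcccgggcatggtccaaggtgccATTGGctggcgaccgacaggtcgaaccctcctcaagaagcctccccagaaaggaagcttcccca
Nsdhl, chrX:72918271-72918570, plus strand: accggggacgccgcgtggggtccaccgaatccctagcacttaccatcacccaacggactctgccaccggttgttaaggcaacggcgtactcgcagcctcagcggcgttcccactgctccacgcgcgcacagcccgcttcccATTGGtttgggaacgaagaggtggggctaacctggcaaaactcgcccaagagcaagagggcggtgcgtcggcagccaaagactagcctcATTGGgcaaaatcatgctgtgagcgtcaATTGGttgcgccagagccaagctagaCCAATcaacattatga
Insig2, upstream start, chr1:121332540-121332839, minus strand: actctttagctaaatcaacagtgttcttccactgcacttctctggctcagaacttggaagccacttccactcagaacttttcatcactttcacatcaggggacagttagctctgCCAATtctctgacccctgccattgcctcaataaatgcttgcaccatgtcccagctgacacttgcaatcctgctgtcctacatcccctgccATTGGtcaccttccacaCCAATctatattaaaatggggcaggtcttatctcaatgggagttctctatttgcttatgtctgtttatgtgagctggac
Abcg5, chr17:84682962-84683261, minus strand: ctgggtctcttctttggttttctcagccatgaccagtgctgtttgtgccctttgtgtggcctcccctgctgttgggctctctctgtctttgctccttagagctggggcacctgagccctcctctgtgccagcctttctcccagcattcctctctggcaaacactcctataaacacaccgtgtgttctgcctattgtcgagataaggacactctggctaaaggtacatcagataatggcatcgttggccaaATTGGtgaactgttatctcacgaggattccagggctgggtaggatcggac

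The SREBP element, in the letters TCACNCCAC, was found in 1 of the 25 members, Hmgcs1, starting at position -137 counted from 0 at the annotated start, and in 1.44% of all genes with a window. Elements of other letters were not searched, so a window without a match was not shown to lack an SREBP element. CCAAT was found in 21 of the 25 members, against 41.1% of all genes, with 4 copies each in Hmgcs1 and Nsdhl, 2 in Idi1 and 1 in Abcg5. Insig2 has 3 windows, and its 3 CCAAT copies all lie in the upstream one. The Abcg5 window shares 209 bases with that of Abcg8. The GC box GGGCGG was in 21 of 25 members, against 38.2% of all genes, and the E-box CACGTG in 6 of 25, against 8.09% of all genes. Of the members called higher in BALBc hyperoxia, Hmgcs1, Idi1 and Nsdhl hold CCAAT, and Sqle had no window to search. Members not called higher there hold CCAAT too, among them Pmvk, Sc5d and Ebp. A match describes the letters of a window and is no evidence of binding in these livers.

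Genes next to the members in the pathway were counted from lists grouped by function, also chosen with earlier results of these data known. Of 14 SREBP targets outside sterol synthesis, mostly enzymes of fatty acid synthesis and desaturation, 1 was called with hyperoxia in BALBc, where 0.944% of all genes were. In C57 limma called 0 of the 14, where 0.937% of all genes were called. Unadjusted p was under 0.05 for 4 of them in each strain, against 12.4% of all genes in BALBc and 14.2% in C57. Fads1, the delta-5 desaturase, averaged 210 ± 9.65 FPKM in BALBc hyperoxia and 161 ± 11 FPKM in BALBc normoxia (SD, n = 4 and 3), and rose by 0.39 ± 0.08 (adjusted p = 0.0425, limma). Its difference from the C57 change was 0.42 ± 0.11 and did not pass (adjusted p = 0.106, limma). Of 5 LXR targets outside the members, limma called 1 for hyperoxia in BALBc, 0 in C57 and 0 for the interaction. The shares of all genes were 0.944%, 0.937% and 0.821%. The called gene was Lpcat3, a phospholipid acyltransferase, which rose in BALBc. It averaged 30.4 ± 1.83 FPKM in BALBc hyperoxia and 21.2 ± 1.29 FPKM in BALBc normoxia (SD, n = 4 and 3), a change of 0.50 ± 0.09 (adjusted p = 0.0123, limma). The other called change was in C57. Among 14 tested genes of sterol esters, oxidation and transfer, 1 was called there and 0 in BALBc. Soat1, which esterifies cholesterol and is abundant in macrophages, averaged 2.14 ± 0.326 FPKM in C57 hyperoxia and 3.64 ± 0.34 FPKM in C57 normoxia (SD, n = 4 each). It fell in C57 by 0.57 on the log2 scale (SE 0.10, adjusted p = 0.0132, limma), and its interaction of 0.74 ± 0.14 passed (adjusted p = 0.0274, limma). Summed macrophage markers were also lower in C57 hyperoxia than in C57 normoxia without overlap, as given above, although of the 8 markers 1 was called higher and 1 lower, with a median change of -0.19. Their part in the Soat1 change was not tested. Of 10 genes of SREBP processing and sterol-regulated degradation and 9 of other isoprenoid branches, 0 were called for oxygen in either strain by limma. Unadjusted p was under 0.05 for 2 of the 10 in BALBc and 1 in C57, and for 0 of the 9 in both. The shares of all genes were again 12.4% in BALBc and 14.2% in C57.

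Between strains these neighbouring genes were called in both directions. Of the 14 SREBP targets, 6 were higher and 1 lower in BALBc in hyperoxia, with 5 higher and 2 lower in normoxia, where 23.2% of all genes were called in hyperoxia and 30% in normoxia. Fads2, the delta-6 desaturase, averaged 588 ± 36.9 FPKM in BALBc hyperoxia and 312 ± 23.2 FPKM in C57 hyperoxia (SD, n = 4 each), a difference of 0.91 ± 0.07 (adjusted p = 3.73e-07, limma). Scd1, the stearoyl-CoA desaturase, averaged 0.791 ± 0.286 FPKM in BALBc hyperoxia and 5.89 ± 2.35 FPKM in C57 hyperoxia (SD, n = 4 each), a difference of -1.89 ± 0.25 (adjusted p = 6.71e-05, limma). Of 14 tested genes of sterol esters, oxidation and transfer, 2 were higher and 4 lower in BALBc in each oxygen condition. Lipa, the lysosomal acid lipase, averaged 109 ± 6.19 FPKM in BALBc hyperoxia and 80.3 ± 5.73 FPKM in C57 hyperoxia (SD, n = 4 each), a difference of 0.44 ± 0.07 (adjusted p = 0.000248, limma).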

How the data were processed

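The deposited table holds FPKM for 54532 genes in 15 liver libraries, made from TRIzol RNA with the NEBNext Ultra II kit per the labels' protocols. The authors computed the FPKM before deposit. Per the submitters' processing notes, HISAT2 2.0.5, featureCounts 1.5.0-p3 and GRCm38 were used. Strandedness, and how fragments matching several places were counted, are not given in the sources used here. FPKM are shares of a library, so a change in abundant transcripts shifts all other values. Of the identifiers, 54409 matched GENCODE M21 and 123 did not. Low FPKM rise in steps worth 1 fragment, and 98.0% to 98.6% of them were within 0.05 of a whole number of fragments. This gave the depth of each library, 1.49e+07 to 1.91e+07 fragments. FPKM are not counts, so no count test was the main test and none was run as an alternative.

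The test covered the 13026 genes that reached an FPKM of 1 in 3 or more libraries. limma 3.58.1 in R 4.3.3 was fitted to log2(FPKM + 1), a pseudocount of 1, with 1 mean per group over all 15 libraries (11 residual degrees of freedom), a variance trend and empirical Bayes moderation. The 5 comparisons were hyperoxia against normoxia in each strain, their difference, and BALBc against C57 in each oxygen condition, with Benjamini-Hochberg adjustment within each. The model was also run on simulated data with independent normal noise, a log2 step of 1 in 200 genes and no library kinds. That run does not bear on library kind or on smaller changes. Tables, motif searches and figures used Python 3.11.15, pandas 2.3.3, numpy 2.4.6 and matplotlib 3.10.9.

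The members and lists were chosen with earlier results of these data known, so no p adjusted over a list alone and no set test is given. Values per library are given for members called in any comparison, for the 4 with the smallest p in each comparison, and for Srebf2, Scap, Insig1 and Insig2. Other members and neighbouring genes are given by range, mean or count, and some genes of the pathway are not reported here. Replicate numbers recur across groups, but of 21 pairs of libraries with the same number 1 had deviations correlated above 0.1 (-0.049 to 0.214), so libraries were treated as unpaired. Alternatives were another pseudocount, filter and scaling, no variance trend, a replicate block, library kind as a term, fits of the compared groups alone, and the omission of each library in turn. A term for Xist and fits within 1 kind of library were added after seeing the data.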

Additional observations from a re-analysis of the deposited data

Results flagged for a closer look

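In groups of 4 libraries, 93 combinations of gene and group were checked for a library whose gap to the nearest of the others, divided by the range of the group, passed Dixon's 95% critical value. Chance alone marks about 1 group in 20, and 6 combinations were marked. Hmgcs1 stood at 82.9 FPKM in BALBc hyperoxia 1, above 56.0 to 59.7 FPKM in the other libraries of that group. Lss stood at 3.53 FPKM in the same library, above 2.31 to 2.34 FPKM. Without that library the Hmgcs1 change in BALBc was 0.53 and was not called. Mylip was low in BALBc hyperoxia 3, at 5.86 FPKM. Cyp51 was high in C57 hyperoxia 2, at 9.81 FPKM. In C57 normoxia, Acat2 was low in library 2, at 8.77 FPKM, and Dhcr7 was high in library 3, at 5.99 FPKM. Apart from these single libraries, the response of Insig2 to hyperoxia differed between the strains by a test of the difference, at -0.57 for BALBc minus C57. That call was lost in 10 of the 15 omissions of a library and in 7 of the 10 other alternatives, among them library kind as a term, which nearly coincides with hyperoxia in C57.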

How the results depend on the processing

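No called log2 change of a named member turned its sign under the alternatives run. Of the values recomputed, 950 stayed on their side of the threshold and 149 lost their call. The number of members called for hyperoxia in BALBc, 5 as reported, was 0 without a filter on low values, 3 without a variance trend, and 0 within libraries with few or with many genes at 1 fragment, which were added after seeing the data. With many, each BALBc group has 1 library, assumed to vary like the others. Leaving out each library gave 0 to 7. The Insig2 difference between strains, 1 call as reported, gave 0 without a filter, with quantile normalization, without a variance trend, with library kind or Xist as a term, and within libraries with many genes at 1 fragment, and 0 to 1 over the omissions. The strain count in normoxia, 9 as reported, was 5 with only the groups compared, 5 and 3 within libraries with few and many, and 6 to 10 over the omissions. In hyperoxia it was 20 as reported, 13 within libraries with many, and 17 to 22 over the omissions. In C57 the count was 0 under every alternative run. The C57 oxygen comparison and the interaction have no value within libraries with few genes at 1 fragment, which include no C57 hyperoxia library. Library kind nearly coincides with strain in hyperoxia. As a term it lost the strain calls there of Srebf2, Mvk, Mvd, Dhcr7 and Pmvk. The cause of these losses was not tested, except that fits within 1 kind of library and omissions use fewer libraries. With replicate number as a block, a pairing the values did not bear out, the counts were 2 for oxygen in BALBc, 0 in C57, 0 for the interaction, and 7 and 18 between strains in normoxia and hyperoxia. Small changes of weakly covered genes, such as Sqle with 40 fragments in its lowest library, may not be detectable at this depth.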
